A study of Mus musculus with 4 samples.

Results

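The genes described here move acid and bicarbonate across kidney membranes. They are the subunits of the V-type proton pump, the carbonic anhydrases and the Slc4 family of transporters, most of which carry bicarbonate. The others are the anion exchanger pendrin (Slc26a4), the ammonia channels Rhbg and Rhcg, and the transcription factor Foxi1. They were chosen by a rule on names that uses no values, though earlier results of these data were known. The rule took each gene whose symbol begins with Atp6v or Atp6ap, each numbered Car gene other than Car3 and each numbered Slc4a gene. The 4 single genes just listed were added, and symbols that mark pseudogenes were left out. This gave 54 of the 38924 genes in the count tables. Of these, 25 belong to the proton pump, 15 are carbonic anhydrases, 10 are Slc4 transporters and 4 are the single genes.

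RNA was sequenced from kidney tissue of female CB-17 SCID mice, which carry the SCID defect on a Balb/c background and so lack functional B and T lymphocytes. In the immune complex group, mice received complexes of IgG with Gd-IgA1, the galactose-deficient IgA1 that is the autoantigen in IgA nephropathy, through the tail vein in 3 doses within 7 days. The saline group, from the same strain and sex, received saline on the same schedule, and kidneys of both groups were taken a day after the last dose. Each group had 2 libraries. The comparison asks how preformed complexes given from outside alter kidney transcripts in a host with little or no antibody of its own. The labels do not say that each sample came from its own animal, and p-values therefore measure the spread between these samples only. Age is not among the labels.

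Kidney tubules keep blood pH by reclaiming filtered bicarbonate, mostly in the proximal tubule, and by secreting acid and ammonia in the collecting duct. In the collecting duct this work falls to intercalated cells, whose identity depends on the transcription factor Foxi1. Acid-secreting (type A) intercalated cells carry the proton pump at the luminal membrane and the anion exchanger Slc4a1 at the blood side, while bicarbonate-secreting (type B and non-A, non-B) cells carry pendrin at the luminal membrane. The pump itself is a rotary motor with a cytosolic V1 part that splits ATP and a membrane-bound V0 part that conducts protons, and every cell uses it to acidify lysosomes and endosomes.

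The libraries held 22791960 and 21681408 gene reads in the immune complex group and 19675879 and 20950134 in the saline group. Markers of kidney epithelium were abundant in every library: the proximal tubule list summed to 14665 and 19707 CPM in immune complex kidneys, against 13891 and 16401 CPM in saline kidneys. CPM is a gene's reads scaled to a fixed library size, after TMM scaling. Other cell types differed between libraries. Adipocyte markers summed to 2119 and 1651 CPM against 58.9 and 651 CPM (9 of 9 higher in immune complex kidneys), erythroid markers to 898 and 916 CPM against 534 and 473 CPM (5 of 5 tested higher), and macrophage markers to 195 and 234 CPM against 161 and 169 CPM (9 of 9 higher). Principal cell markers summed to 1236 and 949 CPM against 2696 and 1245 CPM (9 of 10 lower), urothelium markers to 16.4 and 18.3 CPM against 75.5 and 92.3 CPM (7 of 7 lower), and thick ascending limb markers to 7526 and 11079 CPM against 10877 and 9952 CPM (7 of 9 lower). Distal convoluted and connecting tubule markers summed to 4054 and 2787 CPM against 3376 and 3291 CPM (4 of 8 higher), and endothelium markers to 514 and 476 CPM against 625 and 497 CPM (4 of 8 higher). None of the listed markers was at 0 in all 4 libraries. In whole tissue, fewer cells of a type and less RNA per cell cannot be told apart.

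Ordered by length-corrected level (RPKM, reads per kilobase of exon, scaled to library depth), Car2 stood first among the 54 genes. Car2 encodes the soluble carbonic anhydrase II of proximal tubule and intercalated cells, and stood at 237 and 214 RPKM in immune complex kidneys, against 263 and 224 RPKM in saline kidneys. The next were V1 subunits that all cells use, with 4-library means of 162 RPKM for Atp6v1e1, 138 RPKM for Atp6v1g1, 129 RPKM for Atp6v1f, 79.1 RPKM for Atp6v1a and 78.5 RPKM for Atp6v1d. Carbonic anhydrases with a mean over 10 RPKM were Car2, Car15, Car12, Car14, Car4 and Car5b. The proximal tubule bicarbonate exit path Slc4a4 was the most abundant Slc4 transporter, at a mean of 71.9 RPKM. Foxi1 averaged 13.4 RPKM. Genes at the low end had next to no exon reads: Atp6ap1l, Atp6v1e2 and Car10 were listed at 0 RPKM in every library, because 100% of their few reads lay in introns.

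**Figure D1:**
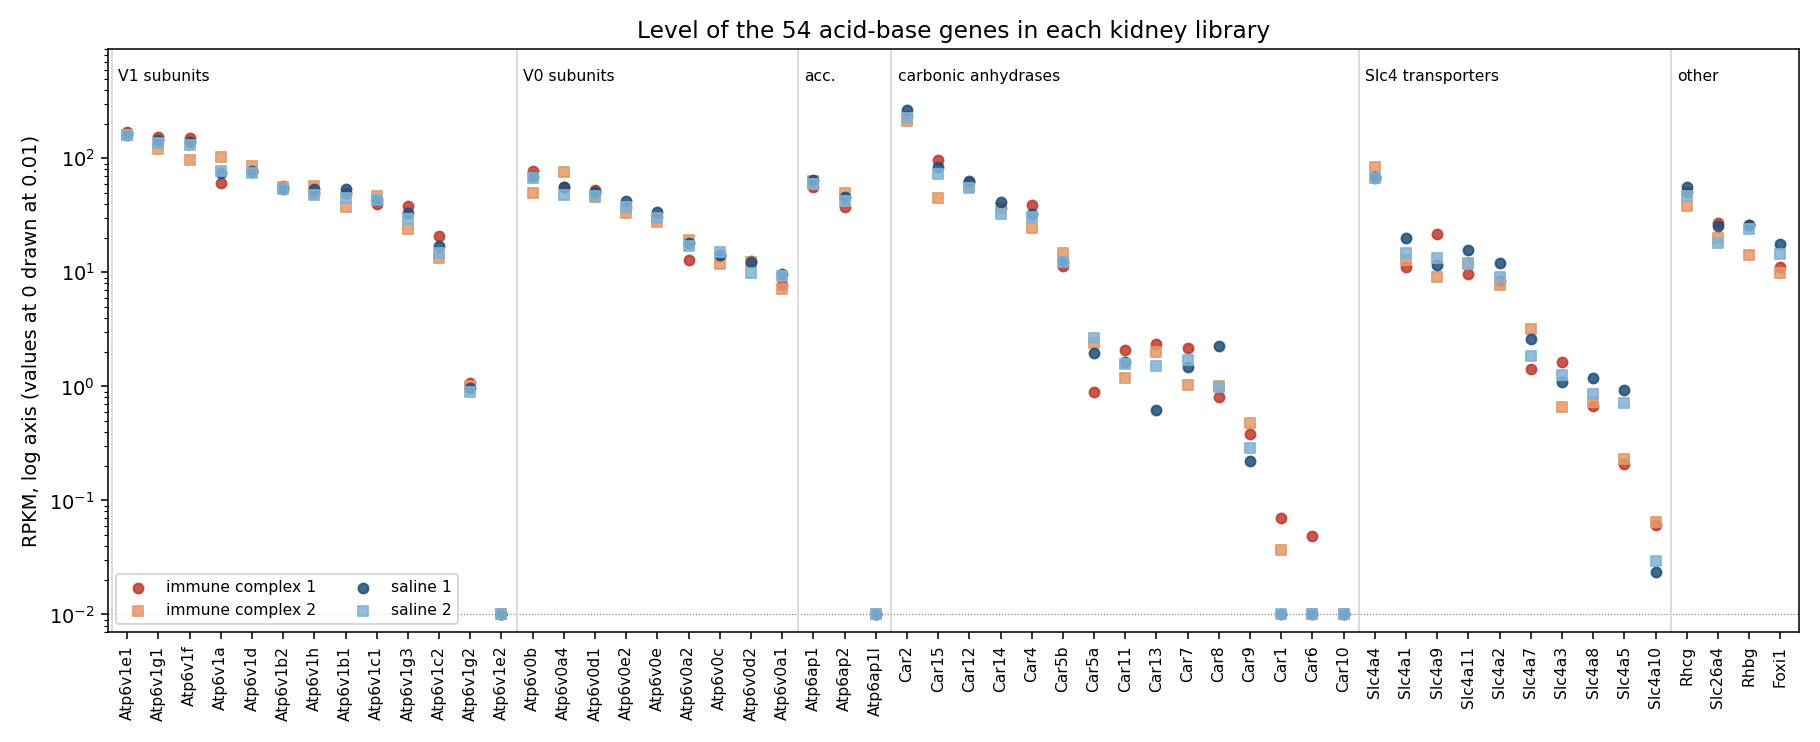
RPKM of each of the 54 genes (vertical log axis, values at 0 drawn at 0.01) in the immune complex and saline libraries, ordered by mean within each role group. The groups' symbols lie close together for most genes, Car2 is highest at 214 to 263 RPKM, and Slc4a5 shows both immune complex points (0.210 and 0.229 RPKM) below both saline points (0.931 and 0.711 RPKM).

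Of the 54 genes, 50 had enough reads to be tested, and Atp6ap1l, Atp6v1e2, Car1 and Car6 did not. These 4 had 6, 14, 6 and 10 reads over all libraries. With edgeR's quasi-likelihood test over 16334 genes, no acid-base gene passed an adjusted p of 0.05, and the share over all tested genes was also 0%. An unadjusted p under 0.05 was reached by 2 of the 50, Slc4a5 and Foxi1, both lower in immune complex kidneys, against 4.59% of all genes. DESeq2 called 1 member, Slc4a5, against 0.568% of all genes with an adjusted p. The authors' deposited table called none of the 49 members that have an adjusted p there, against 0.538% of its genes.

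Means were higher in immune complex kidneys for 29 of the 50 tested genes and lower for 21, with a median log2 fold change (immune complex over saline) of 0.06 against 0.01 for all genes. Both immune complex libraries lay above both saline libraries for 9 members, against 15.4% of all genes. Both lay below for 6 members, against 14.6% of all genes. The groups overlapped for the other 35. For 44 members the fold change was smaller than 0.5 on the log2 scale in either direction, and the exceptions were Slc4a5, Foxi1, Car8, Car13, Car9 and Slc4a10. These counts are near the shares over all genes, and nothing is read from them about acid-base genes in particular.

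**Figure D2:**
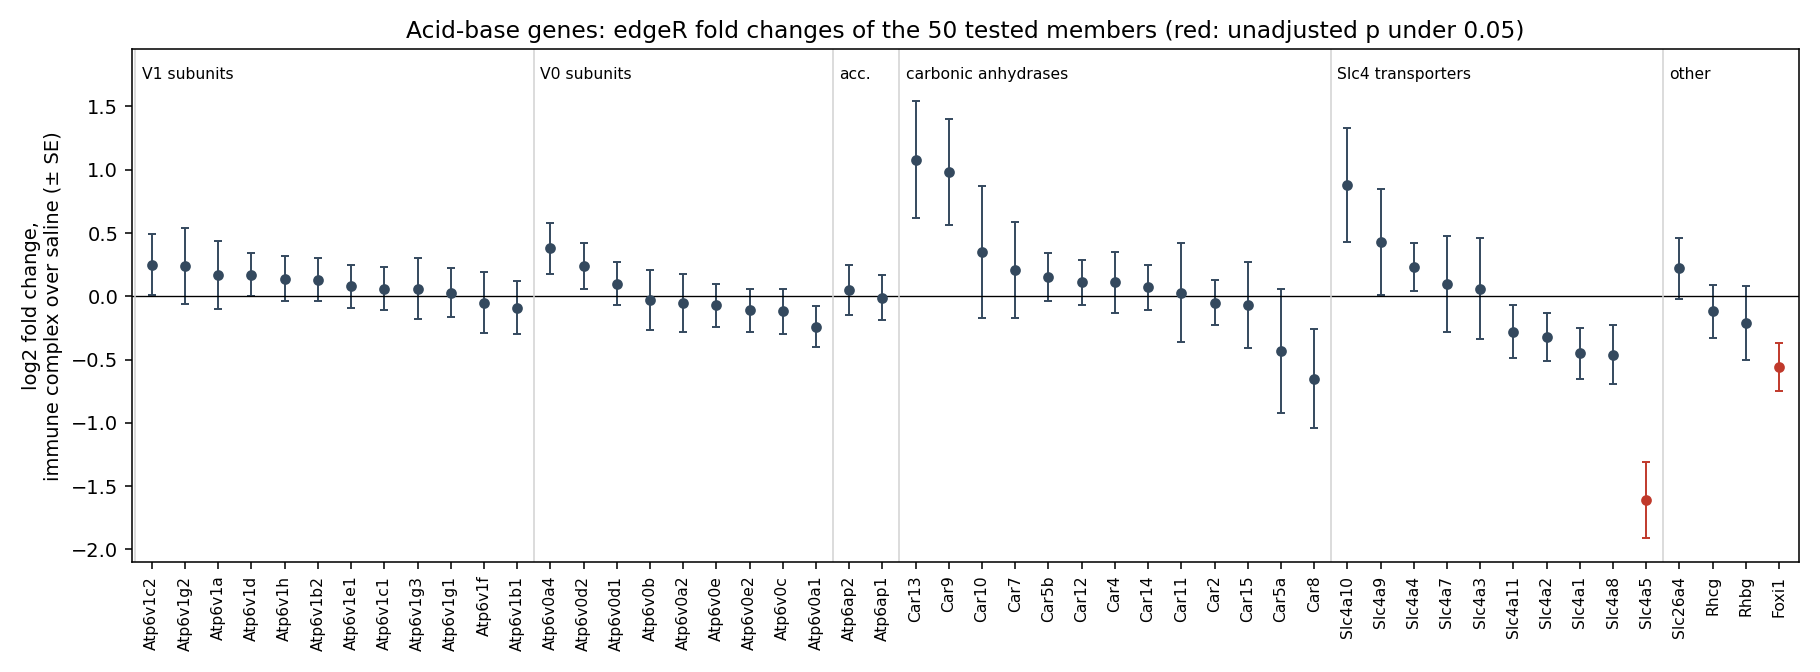
Log2 fold change of immune complex over saline with its standard error from edgeR for the 50 tested genes, sorted within role groups (2 libraries per group). Most points lie within 0.5 of 0. Slc4a5 at -1.61 and Foxi1 at -0.56, in red, are the only members with an unadjusted p under 0.05, and neither passed adjustment.

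No V1 gene passed the test. The catalytic subunit A gene Atp6v1a stood at 379 and 640.5 CPM in immune complex kidneys, against 436 and 468 CPM in saline kidneys. The immune complex libraries lay on both sides of the saline range, and the log2 fold change was 0.17 ± 0.27 (SE). Of the 12 tested V1 genes, 10 had a higher and 2 a lower mean, with a median of 0.11 and a range of -0.09 to 0.25. Groups did not overlap for 3 of them, all higher, against 15.4% higher and 14.6% lower without overlap among all genes. Atp6v1b2, the widely used B2 subunit, stood at 313 and 307 CPM in immune complex kidneys, against 278 and 289 CPM in saline kidneys, a log2 fold change of 0.13 ± 0.17. Atp6v1d, of the central rotor stalk, had 113 and 125 CPM in immune complex kidneys, against 106 CPM in each saline kidney. The remaining one was the G2 subunit gene Atp6v1g2, best known from neurons, at 3.41 and 3.36 CPM in immune complex kidneys, against 2.85 and 2.89 CPM in saline kidneys.

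The V1 subunits that kidney intercalated cells favour overlapped between groups. Atp6v1b1, the B1 subunit whose loss causes distal renal tubular acidosis in people, stood at 104 and 76.8 CPM in immune complex kidneys, against 103 and 89.1 CPM in saline kidneys (log2 fold change -0.09 ± 0.21). The G3 subunit gene Atp6v1g3 had 75.5 and 47.8 CPM in immune complex kidneys, against 61.8 and 56.2 CPM in saline kidneys, a log2 fold change of 0.06 ± 0.24. The C2 subunit gene Atp6v1c2 had 60.9 and 39.03 CPM in immune complex kidneys, against 42.6 and 41.7 CPM in saline kidneys, a log2 fold change of 0.25 ± 0.24. For all 3 genes the first immune complex library was the highest of the 4 and the second lay below both saline libraries. The widely used partners Atp6v1c1 and Atp6v1g1 differed by 0.06 ± 0.17 and 0.03 ± 0.19 on the log2 scale, and Atp6v1e1, Atp6v1f and Atp6v1h by 0.08, -0.05 and 0.14. Only 54.9% of the reads of Atp6v1g1 were placed at 1 location, so its level may include reads of near-identical copies. Introns held 25.4% of the reads of Atp6v1c2, and Pdia6 lies on the opposite strand there, so reads of both cannot be told apart unless counting used strand, and the sources used here do not say.

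The V0 part held the pump gene with the largest fold change. Atp6v0a4 encodes the kidney-enriched a4 subunit, which places the pump at the cell surface and is mutated in distal renal tubular acidosis. It lies on the minus strand at chr6:38048483-38124586 (GRCm38). Atp6v0a4 stood at 335 and 419.6 CPM in immune complex kidneys, against 307 and 272 CPM in saline kidneys. Both immune complex libraries were higher than both saline libraries, and the log2 fold change was 0.38 ± 0.20 (unadjusted p = 0.0972). Leaving out single libraries gave 0.21 to 0.53, the higher value without immune complex replicate 1. Atp6v0a4 overlaps D630045J12Rik on the same strand and Tmem213 on the other. D630045J12Rik had 1128 and 1027 reads in immune complex kidneys, against 949 and 954 in saline kidneys, and Tmem213 had 938 and 241 reads, against 709 and 773. Their part in the value of Atp6v0a4 was not tested.

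Within subunit a, the a4 paralogue took a larger share of exon reads per base in both immune complex kidneys. The share of Atp6v0a4 among Atp6v0a1, Atp6v0a2 and Atp6v0a4 was 73.1% and 74.0% in immune complex kidneys, against 67.2% and 64.4% in saline kidneys. The difference of 7.74 percentage points stayed between 6.34 and 9.15 with any 1 library left out. With 2 libraries against 2, an exact two-sided permutation test cannot give a p below 0.333, so the shares were not tested. The shares of the a1 and a2 paralogues, which serve endosomes, the Golgi and secretory vesicles, were lower. Atp6v0a1 took 10.2% and 7.01% in immune complex kidneys, against 11.4% and 12.7% in saline kidneys, and Atp6v0a2 took 16.7% and 19.0%, against 21.4% and 22.9%. By level, Atp6v0a1 stood at 58.4 and 53.3 CPM in immune complex kidneys, against 65.4 and 66.4 CPM in saline kidneys (log2 fold change -0.24 ± 0.16). The a3 gene Tcirg1, of lysosomes and osteoclasts, is outside these shares, and had 22.5 and 12.1 CPM in immune complex kidneys, against 13.3 and 16.0 CPM in saline kidneys.

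In the other subunits the shares of kidney-enriched paralogues overlapped between groups. The B1 paralogue took 46.5% and 40.1% of subunit B in immune complex kidneys, against 50.03% and 45.4% in saline kidneys. The C2 share was 34.8% and 22.5%, against 28.5% and 25.5%, and the G3 share 19.7% and 16.6%, against 18.6% and 17.8%. Atp6v0d2, the d2 subunit of kidney and osteoclasts, took 19.1% and 21.4% of subunit d in immune complex kidneys, against 19.7% and 17.4% in saline kidneys. Its own level was 36.3 and 35.6 CPM in immune complex kidneys, against 33.1 and 28.0 CPM in saline kidneys, with no overlap and a log2 fold change of 0.24 ± 0.18. Macrophages also express Atp6v0d2, and their markers were higher in the same libraries, as given above. The part of macrophages in the Atp6v0d2 value was not tested. Atp6v0d1, the partner of Atp6v0d2, differed by 0.10 ± 0.17. Only Atp6v1e1 had exon reads for subunit E. Atp6v0e shared subunit e with Atp6v0e2, and took 44.95% and 45.06% in immune complex kidneys, against 44.53% and 44.19% in saline kidneys. Atp6v1g2 took 0.554% and 0.700% of subunit G in immune complex kidneys, against 0.545% and 0.537% in saline kidneys. These shares of Atp6v0e and Atp6v1g2 did not overlap between groups, though the differences were small.

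**Figure D3:**
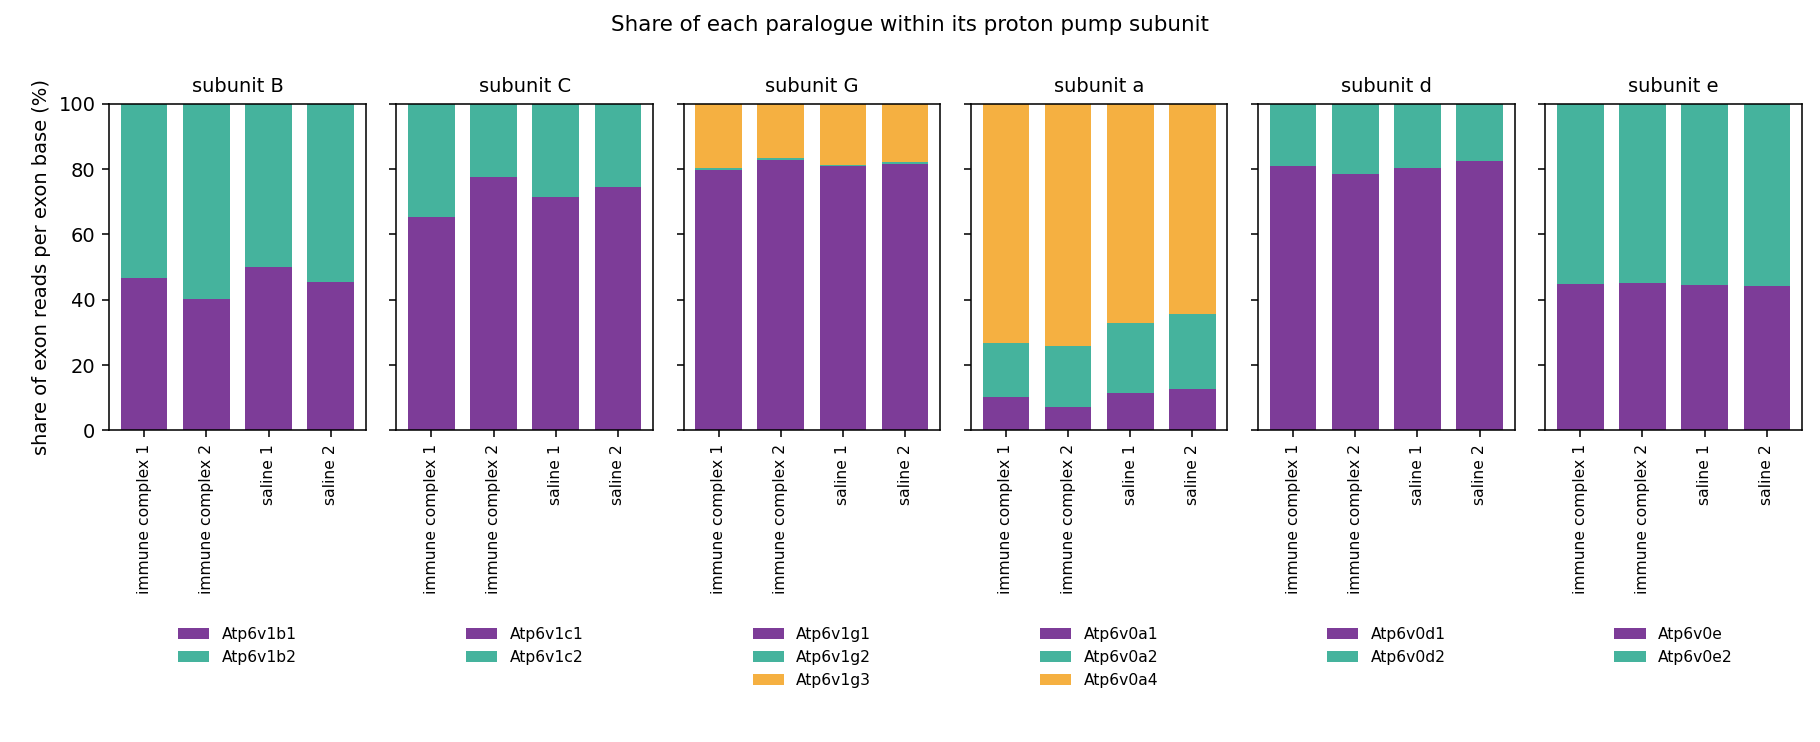
Share of each paralogue in the exon reads per exon base of its proton pump subunit, in percent, as stacked bars for the immune complex and saline libraries. In subunit a the Atp6v0a4 share is 73.1% and 74.0% in the immune complex bars and 67.2% and 64.4% in the saline bars, while the shares of Atp6v1b1, Atp6v1c2, Atp6v1g3 and Atp6v0d2 overlap between groups.

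Of the 9 V0 genes, 3 had a higher and 6 a lower mean in immune complex kidneys, with a median log2 fold change of -0.05. The proteolipid ring genes Atp6v0b and Atp6v0c had overlapping groups and log2 fold changes of -0.03 and -0.12, and 62.8% and 23.2% of their reads were placed at 1 location. Atp6v0a2, Atp6v0e and Atp6v0e2 differed by -0.05, -0.07 and -0.11, all overlapping. The accessory proteins Atp6ap1 and Atp6ap2 (the prorenin receptor) differed by -0.01 ± 0.18 and 0.05 ± 0.20. Of the 5 kidney-enriched paralogues (B1, C2, G3, a4 and d2), 4 had a higher mean, with a median of 0.24, but that median was -0.11 without immune complex replicate 1. The other 18 tested pump genes had a median of 0.04.

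Carbonic anhydrases turn carbon dioxide and water into bicarbonate and protons and so feed both arms of acid-base transport. Of 13 tested, 9 had a higher and 4 a lower mean in immune complex kidneys, with a median log2 fold change of 0.11. Leaving out immune complex replicate 1 or 2 moved that median to -0.12 or 0.37. Among the abundant enzymes, Car2 differed by -0.05 ± 0.18, the extracellular membrane enzymes Car12 and Car14 by 0.11 ± 0.18 and 0.07 ± 0.18, and the mitochondrial enzyme Car5b by 0.15 ± 0.19. Car4, the lipid-anchored enzyme of the proximal brush border, stood at 82.1 and 52.5 CPM in immune complex kidneys, against 63.1 and 62.0 CPM in saline kidneys. Its immune complex libraries lay on both sides of the saline pair, and the log2 fold change was 0.11 ± 0.24.

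Among the tested carbonic anhydrases, which leave out Car3, those at low level differed most. Car3 is instead among the adipocyte markers. Car13, a cytosolic enzyme, lies on the plus strand at chr3:14641727-14663002. It stood at 5.69 and 4.82 CPM in immune complex kidneys, against 1.38 and 3.60 CPM in saline kidneys, with no overlap and a log2 fold change of 1.08 ± 0.46 (unadjusted p = 0.0555). The saline libraries differed from each other by 1.32 on the log2 scale, and without saline replicate 1 the fold change was 0.55, against 1.92 without saline replicate 2. Adipocyte markers had the same order over the 4 libraries (2119 and 1651 CPM, against 58.9 and 651 CPM), and their part in the Car13 value was not tested. Car9, the hypoxia-inducible membrane enzyme, had 1.17 and 1.32 CPM in immune complex kidneys, against 0.541 and 0.710 CPM in saline kidneys, a log2 fold change of 0.98 ± 0.42 (unadjusted p = 0.0522). Its groups did not overlap either. It rests on 80 reads over all libraries, and an antisense gene, Gm12454, lies at the same place. Car9 had 26 and 28 reads in immune complex kidneys, against 11 and 15 in saline kidneys. Gm12454 had nearly the same, 22 and 27 reads, against 11 and 16. Whether the same reads were counted for both genes was not tested, so the level of Car9 is uncertain.

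The remaining tested carbonic anhydrases overlapped between groups. Car8, which lacks the catalytic zinc site and so is inactive, had 3.90 and 4.68 CPM in immune complex kidneys, against 9.15 and 4.35 CPM in saline kidneys. One saline library was high and the groups overlapped (log2 fold change -0.65 ± 0.39). Car15, the lipid-anchored enzyme that mice have and people lack, had 131 and 62.3 CPM in immune complex kidneys, against 107 and 95.7 CPM in saline kidneys. Only 8.4% of its reads were placed at 1 location and it overlaps Gm20518 on the same strand, so its level is uncertain. Car5a, Car7 and Car11 stood between 1.30 and 6.54 CPM with overlapping groups. Car10 had 54 reads in all, every one in an intron.

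Most Slc4 transporters carry bicarbonate. Of the 10 Slc4 genes, 5 had a higher and 5 a lower mean in immune complex kidneys. Slc4a5 had the largest fold change of all 50 tested genes. It encodes NBCe2, an electrogenic sodium bicarbonate cotransporter, and spans chr6:83219828-83304945 on the plus strand. Slc4a5 stood at 1.79 and 1.89 CPM in immune complex kidneys, against 6.10 and 5.203 CPM in saline kidneys. Both immune complex libraries lay far below both saline libraries, and the spread within each pair was small beside the gap. The log2 fold change was -1.61 ± 0.30, with an unadjusted p of 0.00125 and an adjusted p of 0.549 in edgeR's quasi-likelihood test. Without any 1 library it was -1.74 to -1.50.

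The reads behind Slc4a5 were few, at 40 and 40 in immune complex kidneys, against 124 and 110 in saline kidneys. Exon reads alone were 28 and 29 in immune complex kidneys, against 107 and 87 in saline kidneys, with a log2 fold change of -1.81. DESeq2 gave -1.62 and an adjusted p of 0.0448, so the call depends on the tool. In the authors' deposited table, which runs saline over immune complex, the log2 value was 0.77 with an adjusted p of 0.0514. That size may be on another scale than those above, since its unadjusted p there was 0.0003, against 0.000252 from DESeq2 here. Urothelium markers were lower in the same libraries, with a sum of 16.4 and 18.3 CPM in immune complex kidneys, against 75.5 and 92.3 CPM in saline kidneys. Principal cell markers summed to 1236 and 949 CPM, against 2696 and 1245 CPM. For these the second saline library lay close to the first immune complex library. The part of either cell type in the Slc4a5 value was not tested.

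Of the 4 genes that bear the names AE1 to AE4, Slc4a1 and Slc4a2 had a lower mean in immune complex kidneys. Slc4a3 and Slc4a9 had a higher mean, and none of the 4 passed the test. Slc4a1, the chloride-bicarbonate exchanger AE1 (band 3) of type A intercalated cells and red cells, lies on the minus strand at chr11:102348824-102366203. It stood at 56.2 and 64.9 CPM in immune complex kidneys, against 94.2 and 71.5 CPM in saline kidneys. The groups did not overlap, and the log2 fold change was -0.45 ± 0.20 (unadjusted p = 0.0623). Erythroid markers went the other way, with 898 and 916 CPM in immune complex kidneys, against 534 and 473 CPM in saline kidneys. The part of red cells and of intercalated cells in the Slc4a1 value was not tested. Slc4a2, the widely expressed AE2, had 55.2 and 51.1 CPM in immune complex kidneys, against 74.5 and 57.8 CPM in saline kidneys (log2 fold change -0.32 ± 0.19), and Fastk overlaps it on the other strand. The groups did not overlap for Slc4a2. Slc4a3 (AE3) had 15.2 and 6.47 CPM in immune complex kidneys, against 9.49 and 11.3 CPM in saline kidneys, on both sides of the saline pair. Slc4a9 (AE4), at the blood side of type B cells, was the most divided: 81.2 and 31.5 CPM in immune complex kidneys, against 36.5 and 47.2 CPM in saline kidneys, a log2 fold change of 0.43 ± 0.42 that was -0.41 without immune complex replicate 1.

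Sodium-coupled bicarbonate transporters did not share a direction. Slc4a4, the proximal tubule NBCe1, stood at 767 and 957 CPM in immune complex kidneys, against 733 and 734 CPM in saline kidneys. Both immune complex libraries were higher, and the log2 fold change was 0.23 ± 0.19. Slc4a8, a sodium-driven chloride-bicarbonate exchanger of the collecting duct, had 9.72 and 10.02 CPM in immune complex kidneys, against 15.5 and 11.6 CPM in saline kidneys (log2 fold change -0.46 ± 0.23), also without overlap. Slc4a7 (NBCn1), the electroneutral cotransporter of the thick ascending limb, had 11.4 and 25.3 CPM in immune complex kidneys, against 19.9 and 14.4 CPM in saline kidneys, with wide overlap. Slc4a10 (NCBE), best known from brain, had 0.986 and 1.32 CPM in immune complex kidneys, against 0.492 and 0.757 CPM in saline kidneys. Its groups did not overlap (log2 fold change 0.88 ± 0.45), and 67.1% of its 76 reads lay in introns. Slc4a11, best known from the corneal endothelium and not counted among the sodium-coupled bicarbonate transporters, overlapped between groups (log2 fold change -0.28).

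**Figure D4:**
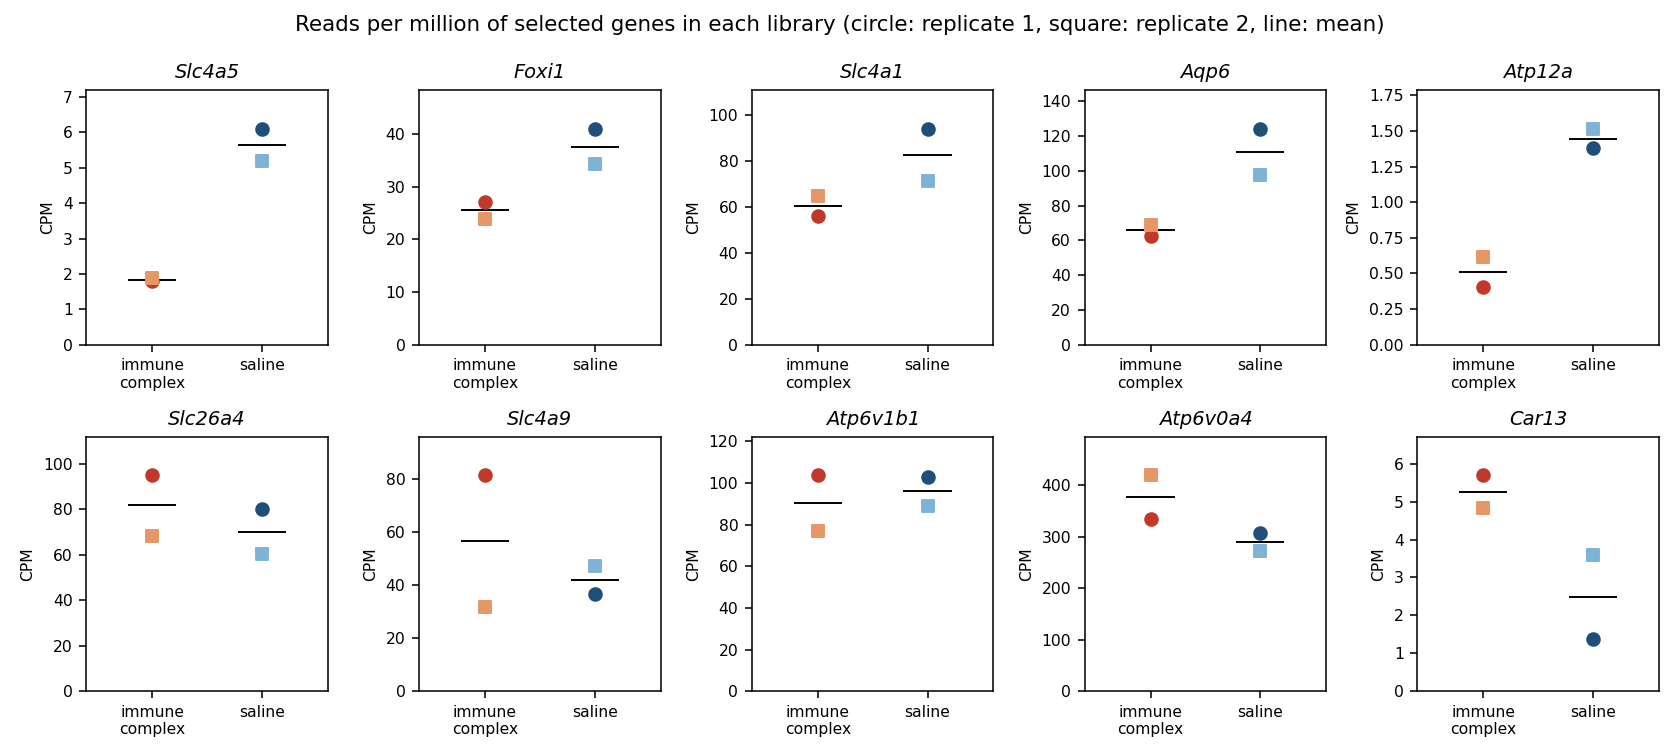
CPM (vertical axis, from 0) of 10 genes in each library, with immune complex on the left and saline on the right of each panel, circles for replicate 1, squares for replicate 2 and a line at the mean of 2 libraries. Slc4a5, Foxi1, Slc4a1, Aqp6 and Atp12a have both immune complex points below both saline points, Atp6v0a4 and Car13 have both above, and Slc26a4, Slc4a9 and Atp6v1b1 overlap.

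Foxi1 was lower in both immune complex kidneys. The gene lies on the minus strand at chr11:34204338-34208089. It stood at 27.1 and 23.9 CPM in immune complex kidneys, against 40.9 and 34.2 CPM in saline kidneys. The groups did not overlap, and the log2 fold change was -0.56 ± 0.19, with an unadjusted p of 0.0221 and an adjusted p of 0.965 in edgeR's quasi-likelihood test. With any 1 library left out it was -0.69 to -0.43.

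Genes known to depend on Foxi1 in mice had log2 fold changes in both directions: -0.45 for Slc4a1, -0.09 for Atp6v1b1, 0.22 for Slc26a4, 0.38 for Atp6v0a4 and 0.43 for Slc4a9, none with an unadjusted p under 0.05. Per length, the ratio of Foxi1 to Atp6v1b1 was 0.226 and 0.264 in immune complex kidneys, against 0.332 and 0.325 in saline kidneys. Slc26a4, the pendrin exchanger of type B cells, had 95.0 and 68.5 CPM in immune complex kidneys, against 80.1 and 60.2 CPM in saline kidneys. Its groups overlapped (SE of its log2 fold change 0.24). The per-length ratio of Slc26a4 to the type A exchanger Slc4a1 was 2.43 and 1.56 in immune complex kidneys. It was 1.28 and 1.23 in saline kidneys, without overlap. The ratio of Slc4a9, also of type B cells, to Slc4a1 overlapped between groups, so a shift between cell types is not read from these ratios. The ratios of Atp6v1g3 to Atp6v1b1 and of Rhcg to Rhbg overlapped too. That of Atp6v0a4 to Atp6v1b1 was 1.12 and 2.02 in immune complex kidneys, against 1.05 and 1.06 in saline kidneys. The groups did not overlap, but the first immune complex library lay close to the saline pair. These ratios were set up with earlier results known and carry no test.

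Ammonia channels overlapped between groups. Rhcg, at the luminal and blood side of collecting duct cells, had 130 and 96.6 CPM in immune complex kidneys, against 132 and 115 CPM in saline kidneys (log2 fold change -0.12 ± 0.21). Rhbg, at the blood side only, had 68.1 and 36.8 CPM in immune complex kidneys, against 61.9 and 59.1 CPM in saline kidneys (log2 fold change -0.21 ± 0.29). In both, the second immune complex library was the lowest of the 4. Over the 4 single genes the median log2 fold change was -0.17, and leaving out immune complex replicate 1 or 2 moved it to -0.50 or 0.12.

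The start-site sequences of Foxi1, of 3 genes known to depend on it in mice (Atp6v1b1, Atp6v0a4 and Slc26a4) and of Slc4a5 are shown because the results above turn on these genes. Each is the 250 bases before the RefSeq gene start, 5′ to 3′ on the gene's strand, build GRCm38.p6. The windows are chr11:34208090-34208339 (minus strand) for Foxi1, chr6:83742767-83743016 (plus) for Atp6v1b1, chr6:38124587-38124836 (minus) for Atp6v0a4, chr12:31559985-31560234 (minus) for Slc26a4 and chr6:83237125-83237374 (plus) for Slc4a5. The bases after the Slc26a4 start did not match a GENCODE transcript of that gene, unlike those of the other windows shown. The Slc4a5 window lies inside the span that the count table gives that gene. Capitals mark the forkhead core TGTTTA, searched on both strands.
Foxi1: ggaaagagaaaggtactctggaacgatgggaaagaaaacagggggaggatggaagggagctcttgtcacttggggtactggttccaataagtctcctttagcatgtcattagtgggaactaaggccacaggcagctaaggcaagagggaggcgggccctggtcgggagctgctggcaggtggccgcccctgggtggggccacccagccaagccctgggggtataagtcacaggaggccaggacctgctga
Atp6v1b1: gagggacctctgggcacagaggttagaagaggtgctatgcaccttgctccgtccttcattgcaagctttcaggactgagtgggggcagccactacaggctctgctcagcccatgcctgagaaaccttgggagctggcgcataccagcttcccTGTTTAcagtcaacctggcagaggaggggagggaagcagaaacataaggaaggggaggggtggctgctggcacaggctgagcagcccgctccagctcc
Atp6v0a4: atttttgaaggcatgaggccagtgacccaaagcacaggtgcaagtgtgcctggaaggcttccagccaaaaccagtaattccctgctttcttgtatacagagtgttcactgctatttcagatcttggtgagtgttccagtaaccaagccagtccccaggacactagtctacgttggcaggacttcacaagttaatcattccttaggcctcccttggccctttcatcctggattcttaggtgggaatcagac
Slc26a4: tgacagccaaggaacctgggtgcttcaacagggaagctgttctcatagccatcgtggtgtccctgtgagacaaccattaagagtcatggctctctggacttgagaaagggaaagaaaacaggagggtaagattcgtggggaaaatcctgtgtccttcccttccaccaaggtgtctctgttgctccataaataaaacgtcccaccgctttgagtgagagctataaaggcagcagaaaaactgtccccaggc
Slc4a5: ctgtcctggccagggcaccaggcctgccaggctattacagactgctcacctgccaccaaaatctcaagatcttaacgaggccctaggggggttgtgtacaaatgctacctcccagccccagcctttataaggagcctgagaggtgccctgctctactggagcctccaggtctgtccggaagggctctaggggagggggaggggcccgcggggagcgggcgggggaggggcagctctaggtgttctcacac
The core stood in 1 of the 5 windows shown, that of Atp6v1b1, where it ends 92 bases before the start. RefSeq start sites were found for 39 of the 54 members, with 49 windows, and 4 windows (8.16%) held the core: those of Atp6v1b1, Car12, Car5a and Slc4a10. Over all 32851 windows the share was 12.0%. A match is a description of these letters only.

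Related genes of acid-base handling and intercalated cells gave counts in the same range. Of 49 listed, 47 were tested, 22 with a higher and 25 with a lower mean in immune complex kidneys, and none passed adjustment. An unadjusted p under 0.05 was reached by 4 of the 47, all lower, against 4.59% of all genes in either direction. Aqp6, an anion-conducting aquaporin in vesicles of type A intercalated cells, stood at 62.3 and 69.1 CPM in immune complex kidneys, against 124 and 97.9 CPM in saline kidneys. The groups did not overlap, and the log2 fold change was -0.76 ± 0.19 (unadjusted p = 0.00626, adjusted p = 0.805 in edgeR's quasi-likelihood test).

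P2ry14, a receptor for UDP-glucose on intercalated cells, had 0.269 and 0.803 CPM in immune complex kidneys, against 4.43 and 1.94 CPM in saline kidneys, a log2 fold change of -2.56 ± 0.64 on few reads. Atp12a, the non-gastric proton-potassium pump, had 0.403 and 0.614 CPM in immune complex kidneys, against 1.38 and 1.51 CPM in saline kidneys, a log2 fold change of -1.50 ± 0.43. The fourth was the sodium-proton exchanger Slc9a4 at -0.88 ± 0.36. All 4 had both immune complex libraries below both saline libraries, but they were picked for a low p, which favours such a gap. By whole list, genes lower without overlap were 2 of 12 for intercalated identity and 2 of 6 for sodium-proton exchange. They were 2 of 2 tested for proton-potassium pumps, 1 of 4 for Slc26 anion exchange and none in the remaining lists, against 14.6% of all genes. The intercalated identity list also held the transcription factor Tfcp2l1 at -0.12 ± 0.22 and the receptor gene Kit at -0.03 ± 0.20. In that list 4 genes had a higher and 8 a lower mean.

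In the other direction the lowest p-values were those of Wdr7 (0.27 ± 0.18) and Dmxl2 (0.33 ± 0.23), which assemble the pump, and of the endothelin gene Edn1 (0.49 ± 0.36). Of the list of a3, assembly and regulation genes 8 of 11 had a higher mean. Ammonia production and glutamine uptake genes had a higher mean for 5 of 7 and acid sensing genes for 3 of 5 tested. The sodium-proton exchange list, which includes Slc9a3r1, had a higher mean for 1 of 6. Slc26 anion exchangers had a higher mean for 1 of 4 and proton-potassium pumps for none of 2. Each of those lists had a median log2 fold change between -0.20 and 0.19 except the proton-potassium pumps, at -1.05.

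The 2 immune complex libraries differed from each other more than the 2 saline libraries did. Over the 50 tested genes the median absolute log2 difference was 0.32 between the immune complex libraries, against 0.16 between the saline libraries, close to the 0.35 and 0.17 over all genes. Members with high GC content in their longest transcript were lower in the second immune complex library. Among the 16 members with the highest GC content (53.2% to 60.4%), 12 were lower in immune complex replicate 2 than in replicate 1, with a median log2 ratio of -0.43. Among the 16 with the lowest GC content (37.6% to 48.2%), 10 were higher there, with a median of 0.21. Across 49 members with a GC value, Spearman's rho of that ratio with GC content was -0.39, as a description of 2 libraries. Over 16176 genes it was -0.52. For saline 2 over saline 1 it was 0.07 across members and -0.06 across all genes. The fold change of immune complex over saline also had a rho of -0.37 with GC content across members and of -0.31 across all genes. The part of GC content in the fold changes above was not tested.

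**Figure D5:**
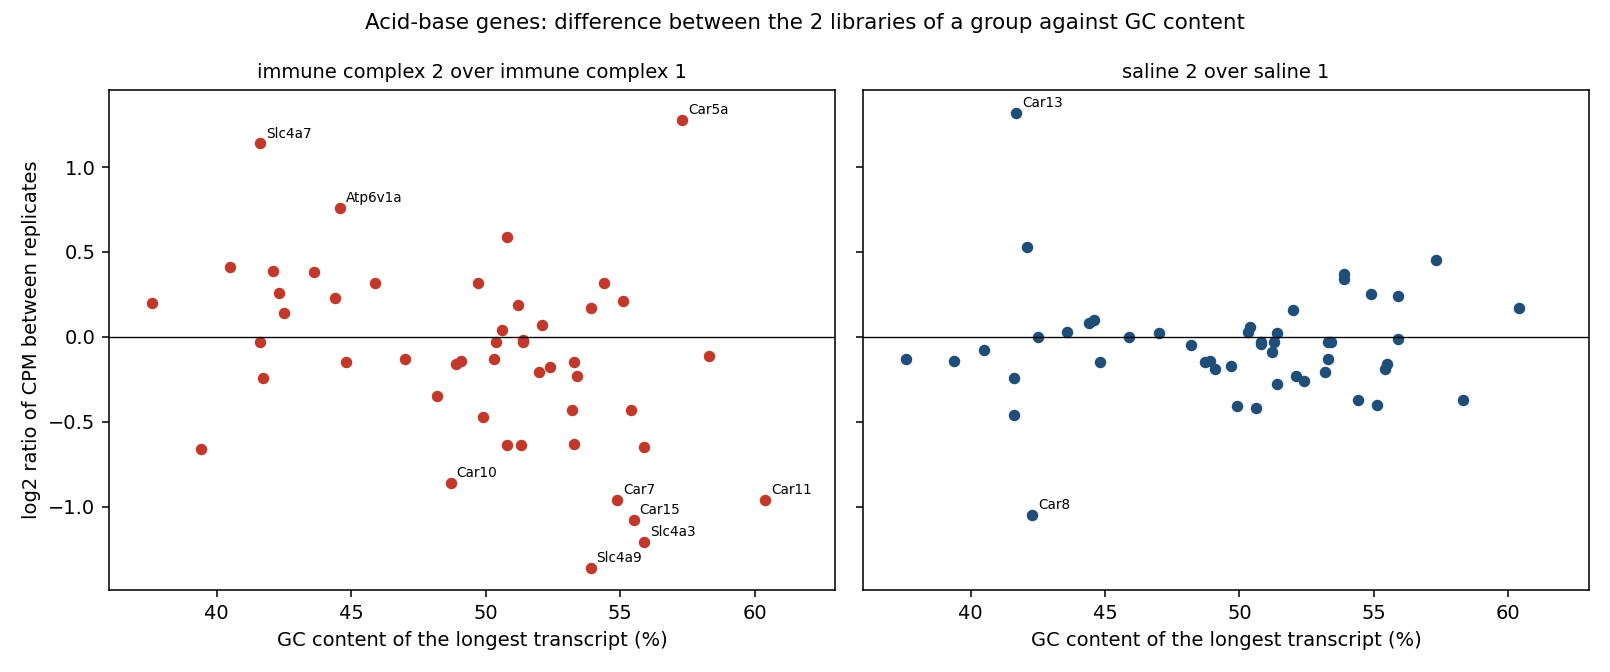
Log2 ratio of CPM between the 2 libraries of a group (vertical axis) against GC content of the longest transcript in percent (horizontal axis) for 49 tested genes, with immune complex on the left and saline on the right. Each point is a gene, and ratios beyond 0.75 in size are named. The immune complex points fall with GC content (Spearman's rho -0.39), and the saline points do not (0.07).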

How the data were processed

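Per the labels' protocols, RNA of 4 kidney samples was sequenced on Illumina libraries. STAR 2.5.2b, DESeq2 and the build GRCm38 are named in the submitters' processing notes, with no role for each. How reads were counted, with which annotation and whether by strand, is not stated in the sources used here. The authors deposited, per sample, whole-number counts of total, exon, intron and uniquely placed reads per gene, with gene and exon lengths and RPKM values, per the file headers. Their comparison table gives, per the file headers, log2 fold changes with errors and raw and adjusted p-values. Its sign is saline over immune complex, since all 80 genes it calls run against the read ratio, and 64512 of 64512 of its counts equal the per-sample total gene reads.

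Total gene reads (exon plus intron) of all genes were tested with edgeR 4.0.16 and limma 3.58.1 in R 4.3.3, by filterByExpr, TMM scaling, glmQLFit and glmQLFTest, with p-values Benjamini-Hochberg adjusted over 16334 genes at 0.05. The common biological coefficient of variation was 0.212, with 2 residual and 4.61 prior degrees of freedom. The SE of a fold change is its size divided by the square root of F. The fit was also run on simulated counts with the same spread for every gene, to check that median fold changes were recovered. That run does not bear on the calls made here. CPM uses TMM-scaled library sizes (20328824 to 22315825 reads). Levels between genes use the deposited RPKM, and paralogue shares use exon reads per exon base. Intron reads were 9.96% and 7.39% of gene reads in immune complex libraries and 8.29% and 8.90% in saline libraries. Without molecular identifiers, reads are not a count of molecules.

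Overlapping genes, GC content and length come from GENCODE M21 on GRCm38 (53 of 54 members found), promoter windows from RefSeq (GRCm38.p6). The 30 bases after the start matched a GENCODE transcript of the same gene for 37 of 49 windows. The members, marker lists and related genes were chosen with earlier results of these data known. The text names with a fold change the genes of a written list of pump, anhydrase and transporter genes and the 8 members with the lowest unadjusted p. It adds related genes with the lowest p in each direction. Other members given with a fold change were chosen after their values were seen. Alternatives were DESeq2 1.42.0 as scaling or as test, no filter on low counts, exon reads, each library left out, and the replicate number as a block. Labels do not say that equal replicate numbers pair samples.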

Additional observations from a re-analysis of the deposited data

How the results depend on the processing

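No acid-base gene was called with DESeq2 size factors in edgeR, without the low-count filter, with exon reads, or without any 1 library; DESeq2 called 1 (Slc4a5, log2 fold change -1.62). Over all genes, where edgeR called 0, DESeq2 called 91, no low-count filter 2, and leaving out 1 library 0 to 279 (47 without saline replicate 1, 279 without saline replicate 2). The replicate number as a block gave 55 genes and no acid-base gene. Deviations of equally numbered libraries correlated at -0.13, and the crossed pairing, added after the data were seen, gave 160 genes, 1 of them a member. Uniquely placed reads, also added then, gave 1 gene, with Car15 at 0.06. Members with an unadjusted p under 0.05 numbered 2, but 4 without the low-count filter and 4 with uniquely placed reads. With 1 library left out they numbered 1 to 13 (13 without immune complex replicate 1, 11 without replicate 2, 1 without saline replicate 1). A fit that leaves 1 library in a group takes its spread from the other pair alone. The share of 4.59% over all genes belongs to the main fit, and shares for these fits are not given. Nothing is therefore read from these counts about acid-base genes in particular.

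With 1 library left out, the median log2 fold change ranged from -0.15 to 0.00 for V0, -0.12 to 0.37 for carbonic anhydrases, -0.36 to -0.07 for Slc4, -0.50 to 0.12 for pendrin, ammonia channels and Foxi1, and -0.11 to 0.26 for kidney-enriched pump paralogues. Of 31 named members, 14 kept their direction in every alternative run, among them Slc4a5, Foxi1, Slc4a1, Slc4a4, Slc4a8, Atp6v0a4, Car9 and Car13. The other 17 changed sign when 1 library was left out: Atp6ap2 -0.17 to 0.24, Atp6v0d1 -0.02 to 0.21, Atp6v1b1 -0.32 to 0.11, Atp6v1c1 -0.06 to 0.17, Atp6v1c2 -0.11 to 0.53, Atp6v1g1 -0.16 to 0.20, Atp6v1g3 -0.30 to 0.36, Car14 -0.08 to 0.22, Car15 -0.70 to 0.37, Car2 -0.15 to 0.05, Car4 -0.25 to 0.39, Car5b -0.06 to 0.33, Rhbg -0.72 to 0.17, Rhcg -0.35 to 0.07, Slc26a4 -0.03 to 0.44, Slc4a7 -0.58 to 0.56 and Slc4a9 -0.41 to 0.95. The cause was not tested.

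With 2 libraries in a group, Slc4a5, Car13, Car9 and Slc4a10 rest on few reads, and counts of 2 libraries cannot separate a group from its libraries.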
